A study of Homo sapiens with 12 samples.

Results

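The genes described here are 58 known direct transcriptional targets of p53 that lie outside its feedback loop and outside the arrest, BCL2, death receptor and DNA repair groups. They were named from knowledge of the p53 field with earlier results of these data known, so their count of rises is a description. All 58 were found among the 23195 genes listed in both Nutlin-3a tables. They were measured by polyA RNA sequencing in HCT116 cells, an established line from a human colorectal carcinoma, with functional p53. Cells had been transfected with a control siRNA (siControl) or with an siRNA against the transcription factor RFX7 (siRFX7), and were then given 10 µM Nutlin-3a or its solvent DMSO for 24 h. The 4 groups were siControl with DMSO, siControl with Nutlin-3a, siRFX7 with DMSO and siRFX7 with Nutlin-3a, each with 3 replicate libraries. All come from 1 cell line, the siRNA sequences are not given in the labels, and the labels do not say whether replicates were separate cultures, so p-values measure only the spread between these libraries, which may be technical.

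p53 is a transcription factor that binds DNA as a tetramer, on a site made of a pair of decamers. In unstressed cells the ubiquitin ligase MDM2 binds p53 and keeps it low, and Nutlin-3a occupies the p53 pocket of MDM2, so that p53 accumulates without DNA damage. RFX7 is a winged-helix factor of the RFX family, which binds X-box DNA, and it is known to act downstream of p53 on a set of growth-restraining genes. The 58 targets reach well beyond arrest and death: they include stress kinases, ceramide and coenzyme A enzymes, ubiquitin ligase parts, receptors, secreted ligands and proteins of mitochondria, endosomes and the cytoskeleton.

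Sequence is shown first for the members whose promoter holds a close match to the p53 site, since these letters are where p53 could contact the gene near its start. RefSeq promoter windows (GRCh38.p14, 250 bases before to 50 after a start site, 300 bases each) were found for 49 of the 58 members, 80 windows in all because some genes have several starts. A match was a pair of p53 consensus decamers with 0 to 13 bases between them, with the core C and G of each decamer kept and at most 3 mismatches elsewhere in the pair. The consensus is its own reverse complement, so both strands were read at once. Of the 80 windows 17 held a match (21.25%), in 14 genes, against 12.8% of all 35116 windows. With no bases between the decamers, 8 of the 80 windows matched (10%), against 1.12% of all windows. Windows can overlap, so the same site can be counted more than once, as for ASTN2 and FHL2. By gene, 14 of the 49 members held a match, against 4172 of 27305 genes. With no bases between the decamers, 7 members and 373 genes did. The matches with at most 2 mismatches or with no bases between the decamers are printed, one for each gene, 5′ to 3′ on the strand of the named gene, with the decamers in capitals and the bases between them in lower case.
PANK1, coenzyme A synthesis, chr10:89645238-89645265, minus strand, 1 mismatch: GGGCATGCTCagtggcggGGACCAGTCT
SLC12A4, potassium-chloride cotransport, chr16:67964095-67964121, minus strand, 1 mismatch: GGGCTTGCCCcacctccCGGCATGCCC
AEN, apoptosis-enhancing nuclease, chr15:88621306-88621325, plus strand, 2 mismatches: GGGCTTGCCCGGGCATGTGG
GRHL3, epidermal transcription factor, chr1:24322923-24322942, plus strand, 2 mismatches: GACCTGGTTCAGGCTTGCCC
DCP1B, mRNA decapping, chr12:2004650-2004669, minus strand, 2 mismatches: GGGCAGGCCTGGGCTTGTCG
ASTN2, astrotactin, chr9:116687227-116687246, minus strand, 3 mismatches: CAGCATGCTGGGGCTTGTCG
RPS27L, ribosomal protein S27-like, chr15:63157527-63157546, minus strand, 3 mismatches: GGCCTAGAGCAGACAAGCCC

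The ASTN2 match also lies in the window of TRIM32, a ubiquitin ligase gene nested in ASTN2 on the other strand, so both genes have the same 20 bases near a start. The other members with a match were CD82, FHL2, PLK2, RALGDS, RAP2B and ZMAT3, each with 3 mismatches. An X-box was searched on both strands as GTTGCC or GTTGCT followed, after 0 to 3 bases, by GGNAAC or AGNAAC. It was found in 1 of the 80 member windows (1.25%), that of DCP1B, against 1.13% of all windows. That X-box is printed because it shares its end base with the p53 match of DCP1B above, and its capitals mark the conserved ends.
DCP1B, X-box, chr12:2004636-2004650, minus strand: GTTGCCagtGGCAAC

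A match is a description of letters in a short window, and the p53 sites of many targets lie elsewhere, in introns or further upstream. The printed matches of SLC12A4, GRHL3 and ASTN2 lie near inner starts. The outermost annotated starts are at 67969601 for SLC12A4 and 24319322 for GRHL3, and that of ASTN2 is given below.

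The tables hold group statistics and no values per library. From each gene's mean normalized count (counts divided by the library's size factor) and its fold changes, the fitted mean of each group was computed, and from the standard errors the dispersion of the authors' model, which gives each group mean a model standard error (SE, 3 libraries a group). The recovered coefficient of variation between replicates was 5.47% for the median member, with a range of 3.71% to 26.5%. Mean normalized counts of the members ran from 11.97 for PADI4 to 29011 for KITLG. Only PADI4, VWCE and TRIM22 were under 100, so their values carry the widest errors. In siControl DMSO alone, fitted means were also under 100 for SPATA18 (15.0), TLR3 (45.7), GRHL3 (47.7), ORAI3 (49.1) and ACER2 (91.4).

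As a check of the labels, RFX7 itself fell to 19.6% of its siControl level in DMSO and to 22.6% in Nutlin-3a, computed from the authors' deposited tables. Of 9 colorectal epithelial markers 7 were listed and 6 had a mean of at least 100 normalized counts; their summed level was 119693 (DMSO) and 268845 (Nutlin-3a) under siControl, and 115063 and 213276 under siRFX7. The keratins KRT8, KRT18 and KRT19 carry most of that sum and rose with Nutlin-3a in siControl, by 1.14, 0.93 and 1.69 in log2 units, while EPCAM fell by 0.51 (adjusted p by DESeq2 5.64e-59, 1.42e-56, 5.90e-60 and 4.69e-08), from the authors' deposited table. CDX1 and LGALS4, markers of differentiated colon, were not listed. Of 5 leukocyte markers 2 were listed, with means of at most 2.05 normalized counts, and of 3 endothelial markers 1 was, at 13.5. Of 6 fibroblast markers 5 were listed, 1 of them at a mean of at least 100, with sums of 407 (DMSO) and 369 (Nutlin-3a) under siControl and 536 and 530 under siRFX7. The part of these marker levels in the results was not tested. In bulk RNA a change in the share of cells and a change in RNA per cell cannot be told apart.

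Nutlin-3a raised 57 of the 58 members in siControl cells (adjusted p below 0.05, the threshold used throughout) in the authors' deposited table, where 22.0% of all genes were called higher. The exception was KITLG. The median member had a log2 fold change of 1.76, against 0.02 over all genes tested, in the authors' deposited table. The rise was at least 2-fold in 48 members, at least 4-fold in 22 and at least 8-fold in 4, namely CD82, TRIM22, SPATA18 and HES2. The spread among members was thus wide, from 1.04-fold for KITLG to 12.3-fold for CD82. The lowest member, KITLG, stood at the 53.2 percentile of all genes by its siControl log2 fold change, and the median member at the 95.0 percentile. In the authors' deposited table the 6 largest log2 fold changes were those of CD82 at 3.62 (standard error 0.11), TRIM22 at 3.57 (0.41), SPATA18 at 3.41 (0.25), HES2 at 3.11 (0.07), TLR3 at 2.84 (0.16) and FAM210B at 2.68 (0.06). Their adjusted p-values by DESeq2 were 2.44e-242 for CD82, 1.51e-17 for TRIM22, 9.82e-41 for SPATA18 and 8.68e-66 for TLR3, and are listed as 0 for HES2 and FAM210B in the authors' deposited table. Folds given by role below were computed from the authors' deposited table, and the 22.0% of all genes is the background of the counts by role.

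**Figure D1:**
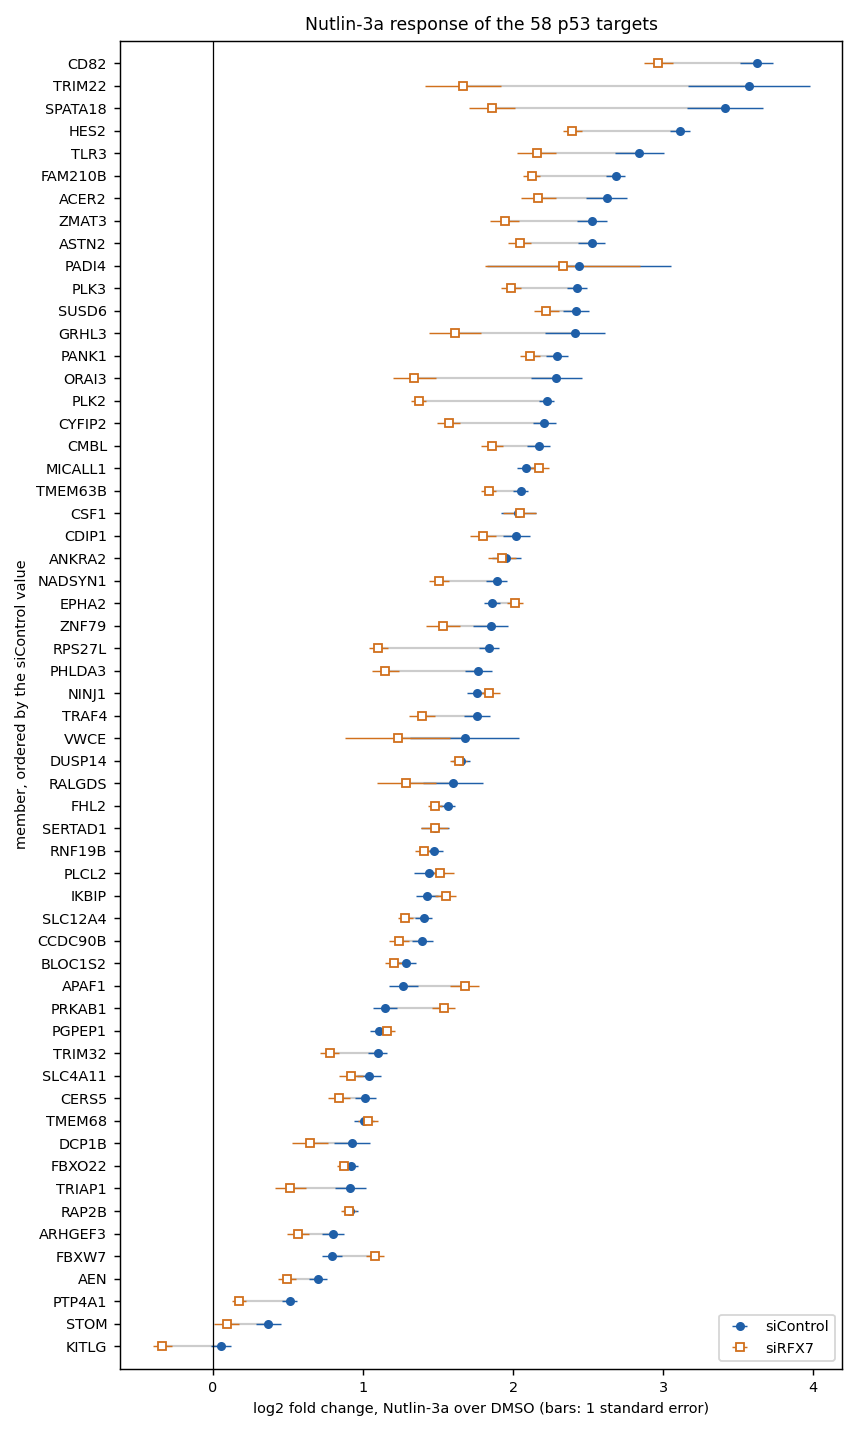
Log2 fold change of each of the 58 members with Nutlin-3a over DMSO, in siControl (filled circles) and siRFX7 (open squares), with bars of 1 standard error from the authors' deposited tables. Members are ordered by the siControl value, from CD82 at 3.62 to KITLG at 0.05; the siRFX7 square of CD82 lies left of its circle, at 2.97, and those of APAF1, PRKAB1 and FBXW7 lie right of theirs.

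The apoptosis and cell death factors were called higher in 10 of 10 genes in siControl, with a median log2 fold change of 1.76 in the authors' deposited table. SPATA18, which mediates removal of damaged mitochondrial protein, had fitted means of 15.0 ± 2.4 normalized counts (SE) in siControl DMSO and 160 ± 11 in siControl Nutlin-3a. The siRFX7 means of SPATA18 were 77.2 ± 6.6 in DMSO and 280 ± 18 in Nutlin-3a. All 4 levels were separate, and the siRFX7 DMSO level lay between the siControl levels. SUSD6, a membrane protein that p53 induces and that restrains growth, rose 5.36-fold, and CDIP1, a pro-apoptotic endosomal protein, 4.06-fold, computed from the authors' deposited table. RPS27L, PHLDA3 and NINJ1 rose 3.58-fold, 3.40-fold and 3.39-fold. PHLDA3 is a pleckstrin-homology protein that competes with AKT for membrane lipid, and NINJ1 ruptures the plasma membrane of dying cells. IKBIP and APAF1, the apoptosome scaffold, rose 2.69-fold and 2.41-fold. The smallest rises of this group were those of TRIAP1 at 1.89-fold and AEN at 1.63-fold; the promoter match of AEN is printed above.

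Kinases, ligands, receptors and their signalling partners were called higher in 13 of 14 genes, with a median log2 fold change of 1.63 in the authors' deposited table. TLR3, the endosomal sensor of double-stranded RNA, rose most, from 45.7 ± 4.5 to 328 ± 19 normalized counts (SE) in siControl. The polo-like kinases PLK3 and PLK2 rose 5.37-fold and 4.67-fold. The macrophage growth factor CSF1 rose 4.10-fold and the ephrin receptor kinase EPHA2 3.63-fold. TRAF4, DUSP14, RALGDS and PLCL2 rose 3.39-fold, 3.15-fold, 3.03-fold and 2.71-fold; they are a signalling adaptor, a dual-specificity phosphatase, an exchange factor for the GTPase Ral and an inactive phospholipase C relative. PRKAB1, a regulatory subunit of the energy sensor AMPK, rose 2.22-fold, the small GTPase RAP2B 1.89-fold and the guanine nucleotide exchange factor ARHGEF3 1.74-fold. PTP4A1, a prenylated phosphatase, rose 1.42-fold. KITLG, the ligand of the receptor KIT, had 26360 ± 830 normalized counts in siControl DMSO and 27323 ± 860 in siControl Nutlin-3a (SE), which overlap (log2 fold change 0.05, DESeq2 adjusted p 0.571 in the authors' deposited table).

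Among the ubiquitin ligase components, 5 of 5 were called higher, with a median log2 fold change of 1.097 in the authors' deposited table. TRIM22, an antiviral ligase of the TRIM family, rose from 5.68 ± 1.46 to 67.4 ± 7.6 normalized counts (SE), while its relative TRIM32 rose 2.14-fold from 1166 ± 37. RNF19B rose 2.78-fold, and the substrate receptors FBXO22 and FBXW7 rose 1.89-fold and 1.73-fold. The 2 TRIM genes differed in level as well: per kilobase of merged exon and per 1000000 counts, siControl DMSO held 0.0350 of TRIM22 and 11.4 of TRIM32.

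Metabolic enzymes were called higher in 8 of 8 genes, with a median log2 fold change of 2.03 in the authors' deposited table. ACER2, an alkaline ceramidase of the Golgi, rose 6.16-fold, and PANK1, which starts coenzyme A synthesis, 4.89-fold. CMBL, a cytosolic hydrolase, rose 4.50-fold and NADSYN1, the last enzyme of NAD synthesis from nicotinic acid, 3.71-fold. PGPEP1, CERS5 and TMEM68 rose 2.16-fold, 2.02-fold and 2.01-fold; they are a peptidase, a ceramide synthase and a lipid acyltransferase. PADI4, which converts arginine to citrulline, had 3.001 ± 1.1 and 16.3 ± 3.4 normalized counts (SE) in siControl DMSO and Nutlin-3a, so its 5.42-fold rise (2.44 on the log2 scale, standard error 0.61, in the authors' deposited table) rests on few reads.

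The RNA and transcription regulators were called higher in 8 of 8 genes, with a median log2 fold change of 1.90 in the authors' deposited table. HES2, a basic helix-loop-helix repressor, rose from 315 ± 13 to 2723 ± 71 normalized counts (SE) in siControl. ZMAT3, an RNA-binding zinc finger protein that regulates splicing, rose 5.75-fold and GRHL3 5.32-fold. ANKRA2, an ankyrin-repeat protein known to bind RFX7, rose 3.88-fold and the zinc finger gene ZNF79 3.61-fold. The LIM-domain cofactor FHL2, the CDK4-binding SERTAD1 and the decapping factor DCP1B rose 2.95-fold, 2.79-fold and 1.90-fold.

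Membrane, transport, cytoskeleton and organelle proteins were called higher in 13 of 13 genes, with a median log2 fold change of 2.05 in the authors' deposited table. CD82, a tetraspanin that restrains metastasis, rose from 227 ± 13 to 2800 ± 130 normalized counts (SE), the largest fold of all 58 members. FAM210B, a mitochondrial membrane protein, rose 6.42-fold, ASTN2 5.75-fold and ORAI3, a calcium channel subunit, 4.89-fold. CYFIP2, a part of the actin-regulating WAVE complex, rose 4.62-fold, MICALL1 of recycling endosomes 4.25-fold and the ion channel TMEM63B 4.14-fold. VWCE, SLC12A4 and CCDC90B rose 3.20-fold, 2.64-fold and 2.63-fold, and BLOC1S2 of lysosome-related organelles 2.44-fold. The borate transporter relative SLC4A11 rose 2.05-fold and the membrane scaffold STOM 1.29-fold.

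In siRFX7 cells the same treatment raised 56 members and lowered 1, KITLG, in the authors' deposited table, where 21.7% of all genes were called higher and 19.7% lower. STOM was not called, at 0.09 (standard error 0.08) in log2 units in the authors' deposited table. The median member had a log2 fold change of 1.51 against -0.02 over all genes tested, in the authors' deposited table. At least a 2-fold rise was seen in 46 members, at least a 4-fold rise in 12, and an 8-fold rise in none. In the authors' deposited table the 6 largest log2 fold changes in siRFX7 were those of CD82 at 2.97 (standard error 0.10), HES2 at 2.39 (0.06), PADI4 at 2.33 (0.52), SUSD6 at 2.22 (0.08), MICALL1 at 2.18 (0.06) and ACER2 at 2.17 (0.12). Their adjusted p-values by DESeq2 were 8.45e-195, 1.62e-305, 2.98e-05, 1.43e-158, 6.84e-263 and 3.76e-75. KITLG fell from 34824 ± 1095 normalized counts to 27536 ± 867 (SE), so that its 2 Nutlin-3a levels overlapped and its siRFX7 DMSO level stood above the other 3. Across the 58 members the 2 sets of log2 fold changes, which share no library, had a Pearson r of 0.86 and a Spearman coefficient of 0.87, against 0.68 and 0.65 across all 23195 genes. The points share library preparation and the size factors of their groups, and genes are not independent replicates.

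The knockdown itself was read within each treatment. In DMSO, the authors' deposited table had 39 of the 58 members higher with siRFX7 and 3 lower, where 13.5% of all genes were called higher and 15.5% lower. Among genes with a mean of at least 100 normalized counts, which 55 of the members reach, 17.1% were called higher. The median member had a log2 fold change of 0.42 against -0.003 over all genes tested, in the authors' deposited table. The rise was at least 1.5-fold in 21 members, of which PADI4 was not called. The largest rises were those of SPATA18 at 2.36 (standard error 0.26), TRIM22 at 2.30 (standard error 0.42), GRHL3 at 1.41, TLR3 at 1.33, CD82 at 1.27 and ORAI3 at 1.09 in log2 units in the authors' deposited table (adjusted p by DESeq2 5.39e-18, 7.66e-07, 2.44e-10, 7.96e-13, 3.43e-27 and 3.71e-08). In the authors' deposited table the 3 lower members were EPHA2 at -0.57 (standard error 0.05), MICALL1 at -0.24 (standard error 0.07) and RAP2B at -0.21 (standard error 0.05) (adjusted p by DESeq2 2.48e-25, 0.00154 and 0.000187).

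By role, siRFX7 in DMSO left 8 of 10 cell death factors, 8 of 14 signalling genes, 3 of 5 ubiquitin ligase components, 5 of 8 metabolic enzymes, 6 of 8 RNA and transcription regulators and 9 of 13 membrane and organelle genes higher in the authors' deposited table. Of all genes 13.5% were called higher, and of those with a mean of at least 100 normalized counts 17.1%. The cell death factors had the highest median of the 6 roles, at 0.65 in log2 units in the authors' deposited table. The roles hold few genes, and differences between them were not tested. Within the signalling group, 2 genes were lower, EPHA2 and RAP2B. PLK2 had 2033 ± 51 normalized counts in siControl and 3930 ± 93 in siRFX7 (SE), both in DMSO, whereas PLK3 had 770 ± 27 and 805 ± 28, which overlap at 1 SE. The 2 polo-like kinases therefore had unlike siRFX7 values in unstressed cells, 0.95 (standard error 0.05) for PLK2 and 0.06 (standard error 0.07) for PLK3 in the authors' deposited table; the difference between the genes was not tested.

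In Nutlin-3a, the authors' deposited table had 27 members higher with siRFX7 and 7 lower, where 15.0% of all genes were called higher and 13.6% lower. Among genes with a mean of at least 100 normalized counts 19.8% were called higher. The median member had a log2 fold change of 0.22 against 0.002 over all genes tested, in the authors' deposited table. Rises of at least 1.5-fold were seen in 7 members: IKBIP, SPATA18, TLR3, GRHL3, CD82, ACER2 and CMBL. IKBIP had the largest, at 0.82 (standard error 0.07), followed by SPATA18 at 0.81 (standard error 0.14), TLR3 at 0.65, CD82 at 0.61, GRHL3 at 0.61 and ACER2 at 0.60 in log2 units in the authors' deposited table (adjusted p by DESeq2 5.70e-32, 1.02e-07, 2.07e-07, 1.76e-09, 0.00154 and 3.59e-07). The 7 lower members were EPHA2 at -0.42, PLK3 at -0.37, PTP4A1 at -0.36, STOM at -0.25, RAP2B at -0.22, HES2 at -0.18 and MICALL1 at -0.16 in the authors' deposited table (adjusted p by DESeq2 9.39e-15, 7.33e-09, 5.14e-12, 0.0107, 2.75e-05, 0.00372 and 0.0265). With a t distribution of 8 degrees of freedom in place of the normal one, 4 of these 7 calls were left, where 1580 of all genes were called lower. The calls of HES2, MICALL1 and STOM were lost.

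**Figure D2:**
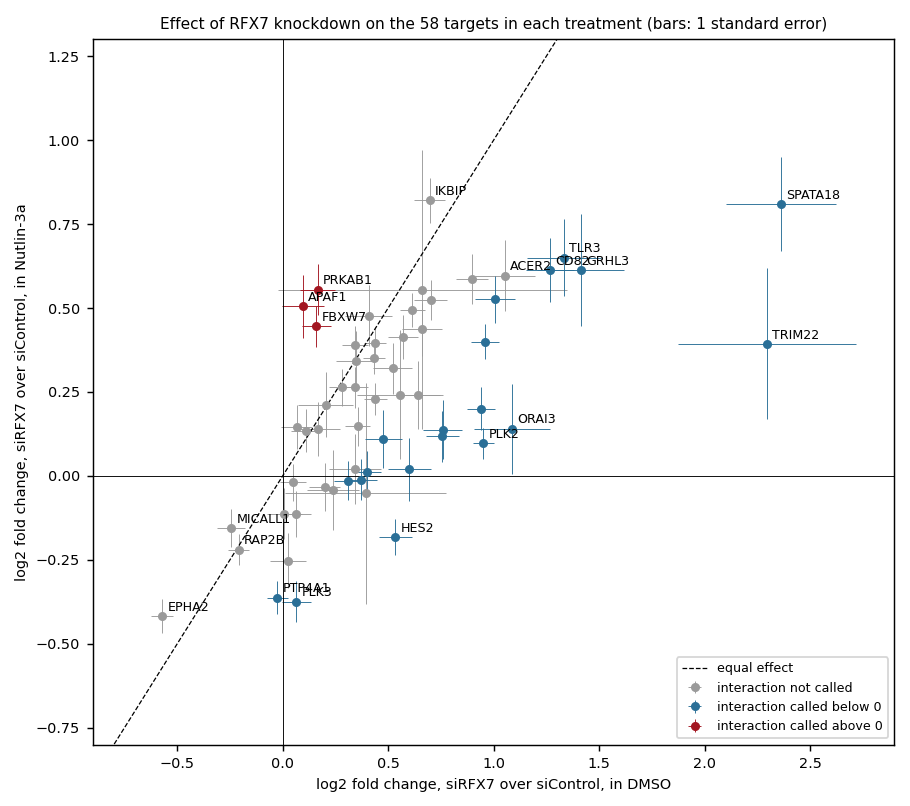
Log2 fold change of siRFX7 over siControl for each of the 58 members, in DMSO (x axis) and in Nutlin-3a (y axis), with bars of 1 standard error from the authors' deposited tables; colour gives the call of the interaction and the dashed line marks equal effects. SPATA18 and TRIM22 lie furthest right, at 2.36 and 2.30 in DMSO, EPHA2 is lower on both axes, and APAF1, PRKAB1 and FBXW7 lie above the dashed line.

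Read together, the calls in the 2 treatments sort the members into patterns. A call in 1 treatment alone is not a called difference between treatments, which is the interaction given below. It was not called for TRIAP1, RALGDS, ARHGEF3, ZNF79 and STOM, each called in 1 treatment alone (z test adjusted p 0.0778, 0.691, 0.203, 0.304 and 0.173). Shares of all genes in this paragraph are over the 19393 genes listed in both siRFX7 tables. Both treatments left 24 members higher with siRFX7, where 8.20% of all genes were, among them CD82, SPATA18, TLR3, ACER2, CMBL, IKBIP, PANK1, SLC12A4, SUSD6 and CDIP1. A further 14 were called higher in DMSO and not called in Nutlin-3a (5.45% of all genes), including PLK2, PHLDA3, ZMAT3, CYFIP2, TRIM22, TRIM32, ORAI3, TRAF4, NADSYN1, TRIAP1 and KITLG. HES2 was the 1 member called higher in DMSO and lower in Nutlin-3a (0.248% of all genes). EPHA2, MICALL1 and RAP2B were lower in both (8.34% of all genes). PTP4A1, STOM and PLK3 were lower in Nutlin-3a with no call in DMSO (5.03% of all genes), and APAF1, PRKAB1 and FBXW7 were higher there with no call in DMSO (6.40% of all genes). No call in either treatment was made for 10 members, against 58.7% of all genes: ANKRA2, CERS5, CSF1, DCP1B, NINJ1, PADI4, RNF19B, SLC4A11, TMEM68 and VWCE. Among these 10, DCP1B is the gene with the X-box match, at 0.24 (standard error 0.12) in DMSO and -0.04 (standard error 0.12) in Nutlin-3a on the log2 scale, and ANKRA2 stood at 0.17 (standard error 0.11) and 0.14 (standard error 0.08), in the authors' deposited tables.

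Over the 58 members the siRFX7 effects in the 2 treatments, which share no library, had a Pearson r of 0.63 and a Spearman coefficient of 0.64, against 0.43 and 0.50 across 19393 genes. The points share library preparation and size factors, and genes are not independent replicates.

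The interaction sets the 2 Nutlin-3a responses against each other. It is the Nutlin-3a log2 fold change in siRFX7 minus that in siControl, tested with a two-sided z test and adjusted over 23195 genes. It was called below 0 in 20 members and above 0 in 3, where 2.92% of all genes were called below 0 and 3.28% above. Among genes with a mean of at least 100 normalized counts 4.69% were called below 0, and among genes called higher with Nutlin-3a in siControl, which share those libraries, 9.18% were. Above 0, 738 of the 12463 genes with a mean of at least 100 were called, a share near that of the 3 members. The median member had an interaction of -0.23 against 0.003 over all genes tested. The largest were those of TRIM22 at -1.90 (standard error 0.48), SPATA18 at -1.55 (standard error 0.29), ORAI3 at -0.95 (standard error 0.23), PLK2 at -0.85 (standard error 0.07), GRHL3 at -0.80 (standard error 0.27), RPS27L at -0.74 (standard error 0.09), HES2 at -0.72 (standard error 0.09) and TLR3 at -0.68 (standard error 0.21). Their z test adjusted p-values were 0.00249, 9.69e-06, 0.00113, 2.66e-33, 0.0444, 2.55e-13, 6.01e-12 and 0.022. With a t distribution of 8 degrees of freedom, 5 of the 20 calls below 0 were left, those of PLK2, RPS27L, HES2, FAM210B and CYFIP2, and none above 0, where 143 and 131 of all genes were called.

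**Figure D3:**
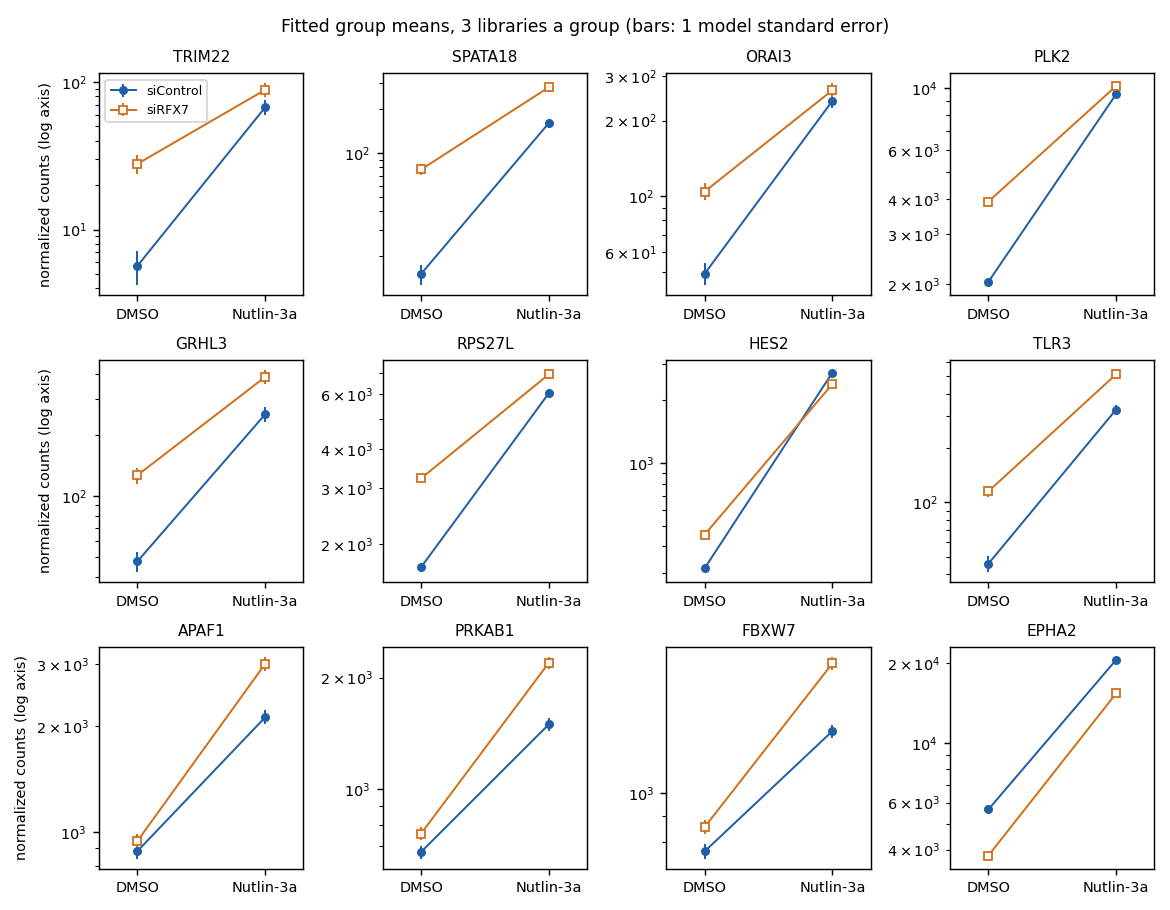
Fitted group means in normalized counts (log axis, ranges differ between panels) for 12 members in DMSO and Nutlin-3a, siControl as filled circles and siRFX7 as open squares, with bars of 1 model standard error; they are the 8 members with the largest interactions below 0, the 3 with one above 0, and EPHA2. In the first 8 panels the gap between siRNAs, read as a ratio, is wider in DMSO than in Nutlin-3a, as for PLK2 at 3930 against 2033 in DMSO. It need not be wider in counts, and for HES2 the siRFX7 level is the lower in Nutlin-3a, at 2399 against 2723. In the APAF1, PRKAB1 and FBXW7 panels the Nutlin-3a levels are set apart.

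PLK2 shows the form with the gap in DMSO. Under siControl PLK2 had fitted means of 2033 ± 51 normalized counts in DMSO and 9489 ± 214 in Nutlin-3a, and under siRFX7 of 3930 ± 93 and 10152 ± 228 (SE). The DMSO levels were far apart, and the Nutlin-3a levels had a log2 fold change of 0.10 (adjusted p by DESeq2 0.10, from the authors' deposited table). RPS27L, a ribosomal protein relative that p53 induces, had 1684 ± 56, 6033 ± 188, 3232 ± 103 and 6931 ± 215 in the same order. ORAI3 had 49.1 ± 4.8, 240 ± 16, 104 ± 8 and 264 ± 17, again with the wider gap in DMSO. Of the 20 members with an interaction below 0, 18 were called higher with siRFX7 in DMSO and 3 lower in Nutlin-3a, HES2 being in both counts. An interaction below 0 is, by definition, the same thing as a knockdown effect that drops from DMSO to Nutlin-3a, so these counts describe the genes and test nothing.

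PLK3 and PTP4A1 had the other form, with the gap in Nutlin-3a. PLK3 had 770 ± 27, 4134 ± 120, 805 ± 28 and 3190 ± 94 normalized counts (SE), so that only its Nutlin-3a levels separated. PTP4A1 had 10113 ± 245, 14400 ± 346, 9940 ± 241 and 11199 ± 270, and its interaction was -0.34 (standard error 0.07, z test adjusted p 7.54e-05). PTP4A1 shares 79.0% of its merged exons with another annotated gene on its strand and has processed copies in the genome, so its counts are uncertain. ORAI3 and RALGDS likewise share 52.9% and 39.9% of their exons with a same-strand gene model. PHLDA3, FBXO22, TRAF4 and TRIM22 share between 10.7% and 19.1% with a neighbour, and how reads in shared exons or on either strand were counted is not given in the sources used here.

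The 3 interactions above 0 were those of APAF1 at 0.41 (standard error 0.14), PRKAB1 at 0.39 (standard error 0.11) and FBXW7 at 0.29 (standard error 0.09), with z test adjusted p-values of 0.0432, 0.0131 and 0.0296. APAF1 had 882 ± 43 (DMSO) and 2121 ± 98 (Nutlin-3a) normalized counts under siControl and 943 ± 45 and 3012 ± 137 under siRFX7 (SE), with overlapping DMSO levels and separate Nutlin-3a levels. PRKAB1 had 674 ± 28, 1494 ± 56, 756 ± 30 and 2193 ± 80, and FBXW7 had 766 ± 25, 1328 ± 40, 857 ± 28 and 1809 ± 53. When the groups were scaled to equal total counts, or centred on the median gene, the call held for PRKAB1 alone of the 3.

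For 35 members the interaction was not called. SERTAD1 had -0.005 (standard error 0.13), CSF1 0.01 (standard error 0.16), RAP2B -0.01 (standard error 0.07), DUSP14 -0.02 (standard error 0.08), TMEM68 0.03 (standard error 0.09) and ANKRA2 -0.03 (standard error 0.13). The standard error was above 0.20 for 8 members, among them PADI4 at 0.80, VWCE at 0.50 and RALGDS at 0.28, so small differences were not detectable there.

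A log2 interaction compares folds, and a gene that starts higher needs more transcripts to rise by the same fold. The gain in normalized counts with Nutlin-3a was therefore also compared between siRNAs, a scale chosen after the data were seen. On this linear scale 17 members had a larger gain in siRFX7 and 6 a smaller one (two-sided z test, adjusted p below 0.05), where 6.75% of all genes were called larger and 2.87% smaller. Of the 12463 genes with a mean of at least 100 normalized counts, 1260 were called larger and 499 smaller. Of the 20 members with a log2 interaction below 0, 4 had a larger gain in siRFX7 (CD82, FAM210B, ASTN2 and TLR3), 5 a smaller gain (KITLG, HES2, PTP4A1, PLK2 and PLK3) and 11 were not called. CD82 gained 2573 ± 130 normalized counts in siControl and 3735 ± 198 in siRFX7 (SE, adjusted p 3.90e-05), although its fold was 12.3 in siControl and 7.82 in siRFX7. TRIM22, with the largest log2 interaction, gained 61.8 ± 7.7 and 60.7 ± 10.2, which overlap. SPATA18 gained 145 ± 12 and 203 ± 19 (adjusted p 0.0826).

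Among the smaller gains were those of PLK3, at 3364 ± 122 in siControl and 2385 ± 98 in siRFX7 (adjusted p 3.44e-08), and of PTP4A1, at 4287 ± 423 and 1258 ± 362 (adjusted p 2.96e-06). EPHA2 gained 14845 ± 528 and 11552 ± 395 (adjusted p 2.49e-05), with no call of its log2 interaction. IKBIP had the smallest adjusted p of all members on this scale, with gains of 1453 ± 83 and 2692 ± 141 (adjusted p 7.05e-12), also with no call of its log2 interaction. With a t distribution of 8 degrees of freedom the counts were 5 larger (CD82, FBXW7, IKBIP, PANK1 and PRKAB1) and 3 smaller (EPHA2, PLK3 and PTP4A1). The share of all genes with a gain called under that distribution was not computed, so these counts have no background.

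**Figure D4:**
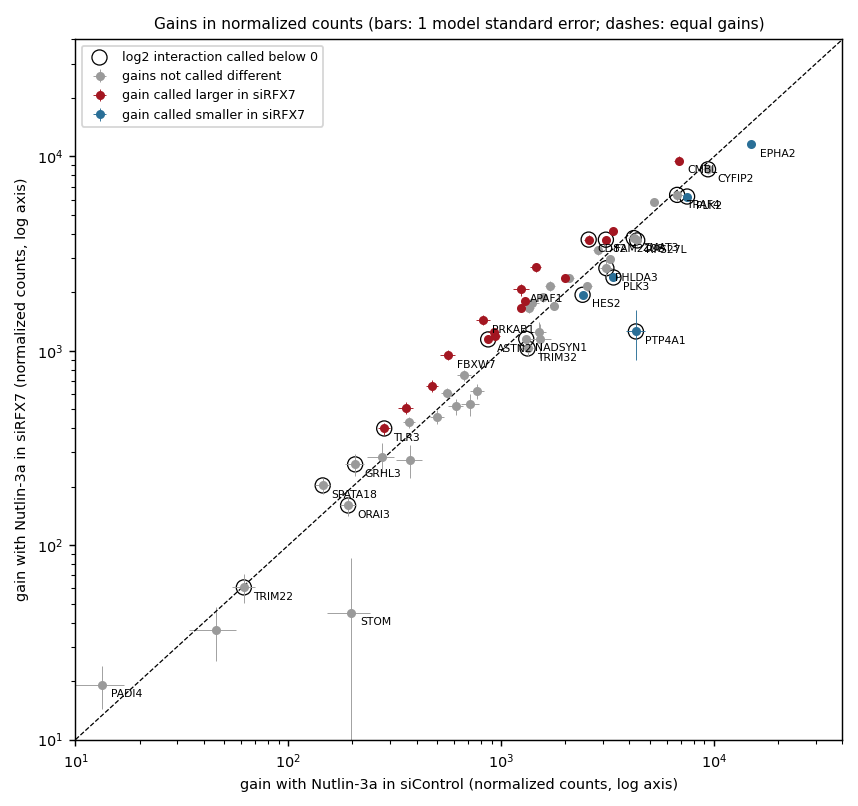
Gain in normalized counts with Nutlin-3a in siControl (x axis) and in siRFX7 (y axis), both log axes, with bars of 1 model standard error, for 57 members; KITLG is left out because its siRFX7 value is below 0. Colour gives the call of the difference in gain and open rings mark members with a log2 interaction called below 0; 11 of the 19 rings had no call of the difference, such as TRIM22 at 61.8 and 60.7, while PTP4A1, PLK3 and HES2 lie under the dashed line of equal gains.

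Members that lie next to each other or overlap in the genome were set side by side. APAF1 (chromosome 12, 98645141 to 98735433, plus strand) and IKBIP (chromosome 12, 98613405 to 98645113, minus strand) run away from each other with 27 bases between their annotated ends. Both had higher levels with siRFX7 in Nutlin-3a, by 0.51 (standard error 0.09) for APAF1 and 0.82 (standard error 0.07) for IKBIP in log2 units in the authors' deposited table. In DMSO, IKBIP alone of the pair was called, at 0.70 (standard error 0.07) against 0.10 (standard error 0.10) for APAF1 in the authors' deposited table; the difference between the genes was not tested. ASTN2 (chromosome 9, 116425225 to 117415070, minus strand) and TRIM32 (chromosome 9, 116687302 to 116701300, plus strand) share the p53 match printed above. That match lies near an inner start of ASTN2, far from its outermost annotated start at 117415070. Counts are per gene and do not show which start was used. ASTN2 rose 5.75-fold in siControl and 4.12-fold in siRFX7, and TRIM32 2.14-fold and 1.71-fold, computed from the authors' deposited tables. The interaction was below 0 for both, at -0.48 (standard error 0.12) and -0.32 (standard error 0.09), with z test adjusted p-values of 0.00201 and 0.00614. With siRFX7 in Nutlin-3a ASTN2 was higher by 0.53, while TRIM32 stood at -0.01 (adjusted p by DESeq2 0.902) in the authors' deposited table.

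The other genes of the p53 program were read from a list of 28 feedback, arrest, cell death, repair, stress and metabolic genes, of which 27 were in the tables and 1 is also on the list of RFX7 targets below. In the authors' deposited tables Nutlin-3a raised all 27 under the control siRNA (median log2 fold change 1.81) and 26 under siRFX7 (median 1.47). Of all genes 22.0% and 21.7% were called higher. The authors' deposited tables had 19 higher and 2 lower with siRFX7 in DMSO, against 11 higher and 6 lower in Nutlin-3a. The interaction was called below 0 in 18 of 27 and above 0 in 2, with a median of -0.43, where 2.92% and 3.28% of all genes were. Gains were called larger in siRFX7 for 7 and smaller for 10, where 6.75% and 2.87% of all genes were. MDM2 had an interaction of -0.69 and the CDK inhibitor CDKN1A of -0.93. The 15 listed RFX7 target genes, a list that may rest in part on these libraries, had 15 of 15 genes lower with the knockdown under Nutlin-3a, with a median log2 fold change of -0.998 in the authors' deposited table. Among the 58 members 7 were lower in that comparison, a share near the 13.6% of all genes called lower. Of the 12463 genes with a mean of at least 100 normalized counts, 2400 were called lower. With the t distribution 4 members and 1580 of all genes were lower.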

How the data were processed

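RNA was measured in 12 HCT116 libraries, 3 in each of 4 groups. The authors deposited 4 result tables; per the submitters' processing notes, the authors' tools included featureCounts 1.6.5 and DESeq2 1.20.0, and the build was hg38. The aligner, annotation and strand handling are not given in the sources used here. Per the file headers, the tables hold a mean normalized count (a signal), log2 fold changes with standard errors on the log2 scale, a test score, and p-values with adjusted p-values. The knockdown tables give siRFX7 relative to siControl: read that way, fold changes around the 4 tables closed to within 1.29e-14. The planned count test needs values per library, so the deposited statistics were used, as the design foresaw.

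Computed here, with Python 3.11.15 and scipy 1.17.1, were group means, recovered dispersions (the 4 tables gave values within 8.23% of each other for every member), the interaction (z test, Benjamini-Hochberg over 23195 genes, standard errors taken as known), gains and promoter matches. The functions were tested on simulated data. Gene positions and merged exon lengths are from GENCODE 29 and promoter sequences from RefSeq (GRCh38.p14). Calls used an adjusted p below 0.05 with no minimum fold. Fitted normalized counts summed to between 25916000 and 27407500 a group; the depth of single libraries is unknown. Members, roles and lists were chosen with earlier results of these data known. All members are named; full statistics went to the 6 largest called changes per comparison, the 8 largest interactions per direction, members called against the majority, PLK2 with PLK3, TRIM22 with TRIM32, and ANKRA2. Alternatives were stricter thresholds, other scalings, a filter on low means, a t distribution and the linear scale.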

Additional observations from a re-analysis of the deposited data

Results flagged for a closer look

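The Nutlin-3a response was unlike under the 2 siRNAs for 23 of the 58 members (z test on the interaction, adjusted over 23195 genes), and 35 did not pass. Of all genes 2.92% were called below 0 and 3.28% above by this z test. Of the 12463 genes with a mean of at least 100 normalized counts, 584 were called below 0 and 738 above. With a t distribution of 8 degrees of freedom 5 members below 0 and 0 above were left, where 143 and 131 of all genes were called. Values are the log2 response in siRFX7 minus that in siControl. The differences below 0 were -1.90 for TRIM22, -1.55 for SPATA18, -0.95 for ORAI3, -0.85 for PLK2, -0.80 for GRHL3, -0.74 for RPS27L, -0.72 for HES2, -0.68 for TLR3, -0.65 for CD82 and -0.64 for CYFIP2. Smaller ones below 0 were -0.62 for PHLDA3, -0.58 for ZMAT3, -0.56 for FAM210B, -0.48 for ASTN2, -0.44 for PLK3, -0.39 for KITLG, -0.38 for NADSYN1, -0.37 for TRAF4, -0.34 for PTP4A1 and -0.32 for TRIM32. Those above 0 were 0.29 for FBXW7, 0.39 for PRKAB1 and 0.41 for APAF1. TRIM22 had a fitted mean of 5.68 normalized counts in siControl DMSO, so its value rests on few reads. The siControl DMSO mean of SPATA18 was also low, at 15.0.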

How the results depend on the processing

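A minimum absolute log2 value of 0.58 left 0 members lower with Nutlin-3a in siRFX7, where 2423 of all genes were. It left 20 members higher and 0 lower with siRFX7 in DMSO (1044 and 503 of all genes). In Nutlin-3a it left 7 members higher and 0 lower with siRFX7 (801 and 681 of all genes). The interactions left were 12 below 0 and 0 above (359 and 185 of all genes). A t distribution with 8 degrees of freedom left 4 members lower with siRFX7 in Nutlin-3a (1580 of all genes). It left 5 member interactions below 0 and 0 above (143 and 131 of all genes). An adjusted p threshold of 0.01 left 0 member interactions above 0 (446 of all genes). Scaling to equal totals or centring on the median gene left 1, PRKAB1 (583 and 591 of all genes). On the linear scale, added after the data were seen, 17 differences were called above 0 and 6 below (1351 and 575 of all genes). Members with a p53 match numbered 5 with at most 2 mismatches and 7 with no spacer, of 49 with a window. Of all 27305 genes with a window, 989 and 373 had such a match. By window these were 6.25% and 10% of the 80 member windows, against 2.93% and 1.12% of all windows.

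Some uncalled values changed sign. With siRFX7 in DMSO PTP4A1 moved to 0.032 with equal totals and 0.0086 with centring. In Nutlin-3a, equal totals gave 0.0075 for RNF19B, 0.013 for TRIM32 and 0.016 for NADSYN1. The interaction became -0.0035 (equal totals) and -0.0019 (centring) for TMEM68, and -0.022 and -0.021 for CSF1. Each of these scalings subtracts 1 constant from all genes of a comparison (equal totals: -0.057 for siRFX7 in DMSO, -0.027 in Nutlin-3a and 0.03 for the interaction), and these values lay closer to 0 than that constant. The counts with Nutlin-3a in siControl kept within 1.5 times under each alternative run.

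No paired analysis was possible because the tables hold no values per library, and leaving out a library was not run for the same reason. The z test takes the standard errors as known. Library depth is unknown, and PADI4, VWCE and TRIM22, with means under 100 normalized counts, limit what can be seen.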
